A study of Mus musculus with 18 samples.

Results

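The genes of the insulin-like growth factor (IGF) axis followed here were the growth factors Igf1 and Igf2, their receptor Igf1r, and the binding proteins Igfbp2, Igfbp3, Igfbp4, Igfbp5, Igfbp6 and Igfbp7. They were taken by gene symbol and are 9 of the 35655 genes in the deposited table, of which 18049 held a count in some library. The filter on low counts kept 10312 genes and 8 of these 9. Igf2 did not pass it and is given by its counts alone.

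The data were 18 libraries of 3′ transcript ends (nanoMACE-seq) from the carotid artery of WT mice of the C57/BL6 strain. Young adult male animals on a diet without high fat were used, and the left carotid artery was injured with a wire. There were 4 libraries from day 0, labelled pre-injury, and libraries from days 7 (4), 14 (3), 21 (4) and 28 (3) after wire injury. Each library came from a pool of many frozen sections in which the outer elastic lamina and the neointima were cut out by laser, so it mixes all cells of that area, and the labels do not say whether a pool spans more than 1 animal. The study took the right, uninjured carotid artery for control, and the sources used here do not state whether the day 0 tissue was the uninjured side of injured mice. The same number ends the descriptions of 3 day 0 and 3 day 21 libraries, and its meaning is not given. Since nothing else says that replicates were separate animals, p-values measure the spread between these libraries, which may in part be technical.

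IGF1 and IGF2 are secreted peptides that act through the IGF1 receptor, a tyrosine kinase that signals by way of the insulin receptor substrates and the PI3K and AKT kinases. In the extracellular space most IGF is held by binding proteins, which prolong its life, keep it from the receptor or hand it over near the cell surface, and which are in turn cut by proteases such as the pappalysins. Arterial smooth muscle cells respond to IGF1 with growth, migration and survival, and they make several of the binding proteins themselves, while IGF1 is also a product of macrophages.

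The 9 genes lie on 6 chromosomes of the GRCm39 build (mm39), by the GENCODE M39 annotation. Igfbp2 (chr1:72863606-72891634, + strand) and Igfbp5 (chr1:72897091-72914043, - strand) are neighbours whose 3′ ends face each other with 5456 bases between them. Igfbp3 (chr11:7156086-7164179, - strand) and Igfbp4 (chr11:98932064-98945218, + strand) share chromosome 11 but lie far apart. Igf1 is at chr10:87693642-87772904 (+), Igf1r at chr7:67601518-67883416 (+), Igf2 at chr7:142204503-142220694 (-), Igfbp6 at chr15:102052697-102057953 (+) and Igfbp7 at chr5:77493130-77555931 (-). Genes on the opposite strand overlap Igf1r (Pgpep1l), Igf2, Igfbp3 and Igfbp7 (Polr2b), and whether the counting used the strand is not given in the sources used here, so reads of such pairs may not be separable. For the 4 binding proteins with the most distinct courses, the stretch before the annotated start is shown in the direction of transcription from the GRCm39 genome, with capitals for matches to the searched motifs. It covers 250 bases for Igfbp3 (chr11:7164180-7164429), Igfbp4 (chr11:98931814-98932063) and Igfbp5 (chr1:72914044-72914293), and 207 for Igfbp2 (chr1:72863399-72863605).
Igfbp2: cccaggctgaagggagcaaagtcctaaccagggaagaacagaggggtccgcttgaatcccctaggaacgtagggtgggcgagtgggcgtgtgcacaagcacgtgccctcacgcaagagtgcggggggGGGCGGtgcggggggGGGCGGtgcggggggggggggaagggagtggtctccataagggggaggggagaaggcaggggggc
Igfbp3: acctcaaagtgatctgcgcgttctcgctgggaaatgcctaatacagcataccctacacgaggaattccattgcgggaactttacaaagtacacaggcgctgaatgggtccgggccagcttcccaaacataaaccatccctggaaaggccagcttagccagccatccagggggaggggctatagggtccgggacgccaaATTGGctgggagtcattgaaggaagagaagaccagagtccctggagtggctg
Igfbp4: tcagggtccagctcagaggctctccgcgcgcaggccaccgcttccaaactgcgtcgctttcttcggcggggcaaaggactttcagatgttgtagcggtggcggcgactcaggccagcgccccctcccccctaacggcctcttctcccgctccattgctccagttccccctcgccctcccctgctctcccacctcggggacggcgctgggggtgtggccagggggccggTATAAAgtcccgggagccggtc
Igfbp5: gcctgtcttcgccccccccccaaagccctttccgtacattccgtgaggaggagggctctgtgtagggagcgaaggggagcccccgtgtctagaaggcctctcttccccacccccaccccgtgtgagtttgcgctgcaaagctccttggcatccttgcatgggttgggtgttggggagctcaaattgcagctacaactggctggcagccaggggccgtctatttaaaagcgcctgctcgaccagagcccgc

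Motifs were searched on both strands in the 250 bases before the canonical start of 21751 protein-coding genes. The capitals in the Igfbp2 stretch are GC boxes (GGGCGG), which 36.3% of all promoters hold, those in Igfbp3 are a CCAAT box on the opposite strand (36.5% of all promoters), and those in Igfbp4 are a TATA box (TATAAA, 11.9%) that lies 22 bases before the start. The Igfbp5 stretch held none of the motifs searched. No match was found in any of the 9 promoters for the AP-1 site TGACTCA (4.02% of all promoters), the FOXO site GTAAACA (2.72%) or the CArG box (1.40%). The share of G and C in the 250 bases ranged from 45.6% for Igf1 to 80.8% for Igf1r, against a median of 53.2% over all promoters. A match describes the letters only.

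Library totals were 440675 to 878310 counts, and levels are given as counts scaled to a common normalised library size, in CPM. Each transcript gives 1 fragment near its 3′ end, so levels were not set on a scale per length. The levels of different genes are not compared. Changes are log2 fold changes from edgeR. The SE beside them is approximate, as it was derived by dividing the size of the change by the square root of its quasi-likelihood F. A gene is said to be higher or lower where its Benjamini-Hochberg adjusted p over all 10312 genes was under 0.05. In the same libraries, the summed level of 12 contractile smooth muscle genes ranged over 39860-45370 CPM on day 0 and 2155-8555 CPM on day 7, and was 25700-33910 CPM on day 28. The sum of 16 macrophage genes went the other way, with 154.2-608.9 CPM on day 0, where Mpeg1 and Itgam were at 0, 6035-8521 CPM on day 7 and 1019-1384 CPM on day 28. In bulk tissue such as this, fewer cells of a type and less RNA per cell cannot be told apart.

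**Figure D1:**
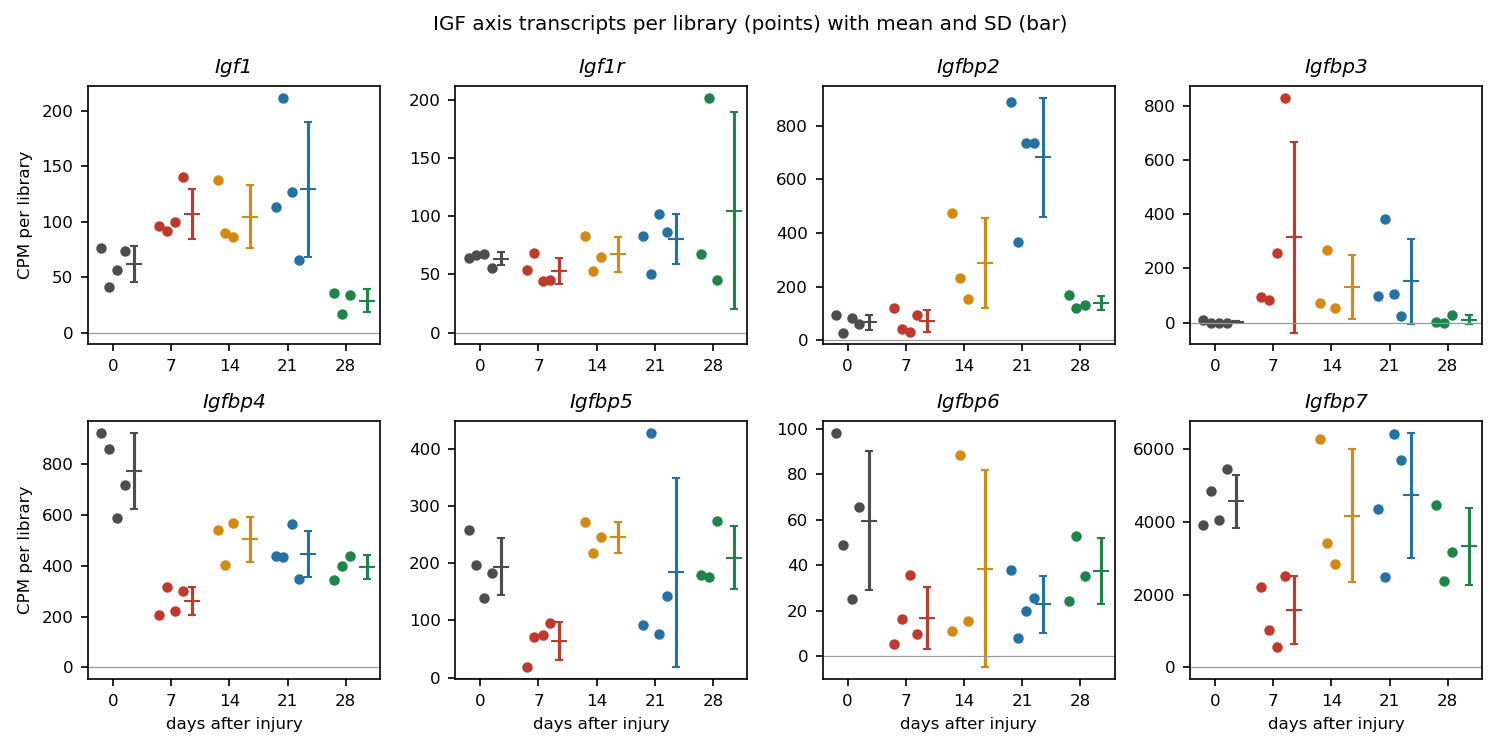
Level of each of the 8 tested genes (Igf2 is not shown) in CPM (y axis, a scale of its own in each panel) by day after injury (x axis), with a point for each library and a bar for the mean and SD of the day. Igfbp3 is at or near 0 on day 0 and has its highest mean on day 7, where replicate 4 stands apart at 829.8 CPM, Igfbp2 is highest on day 21, and Igfbp4, Igfbp5, Igfbp6 and Igfbp7 have their lowest mean on day 7.

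Compared with day 0, the axis changed most on day 7, where Igfbp3 was higher and Igfbp4, Igfbp5, Igfbp6 and Igfbp7 were lower. Thus 1 of the 8 tested genes was higher, beside 11.3% of all genes tested, and 4 were lower, beside 8.53%. On day 14, Igfbp2 and Igfbp3 were higher (2 of 8, beside 4.80% of all genes) and none of the 8 was lower (beside 1.42%). On day 21, Igf1, Igfbp2 and Igfbp3 were higher (3 of 8, beside 5.92%) and Igfbp4 was lower (beside 2.93%). On day 28, Igfbp4 alone of the 8 was lower (beside 0.369%), and none was higher (beside 0.970%). The median log2 change of the 8 genes was -0.90, 0.21, 0.20 and -0.17 on days 7, 14, 21 and 28, while that of all genes tested was 0.07, 0.05, 0.07 and -0.01. These comparisons share the day 0 libraries. By library, 2 of the 8 genes lay wholly above day 0 on day 7 (beside 13.6% of all genes) and 3 wholly below (beside 9.71%). The corresponding numbers were 3 above (10.7%) and 1 below (6.79%) on day 14, 2 above (9.31%) and 1 below (6.81%) on day 21, and 1 above (4.88%) and 2 below (5.07%) on day 28.

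Between the later days, Igfbp2, Igfbp4 and Igfbp5 were higher on day 14 than on day 7 (3 of 8, beside 1.33% of all genes, with 0.330% lower), and Igfbp2, Igfbp4, Igfbp5 and Igfbp7 on day 21 than on day 7 (4 of 8, beside 4.03%, with 3.23% lower). On day 28, Igfbp5 was higher (beside 6.40%) and Igf1 and Igfbp3 were lower (2 of 8, beside 8.05%) than on day 7. Igf1 and Igfbp2 were lower on day 28 than on day 21 (2 of 8, beside 0.572%), and Igf1 was lower on day 28 than on day 14 (beside 0.659%). Between days 21 and 14, edgeR called none of the 8 genes and 0 of the 10312 genes tested, with 421 genes and 1 of the 8 (Igfbp2, chosen after its values were seen) at an unadjusted p under 0.05, while DESeq2 called 3 genes.

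**Figure D2:**
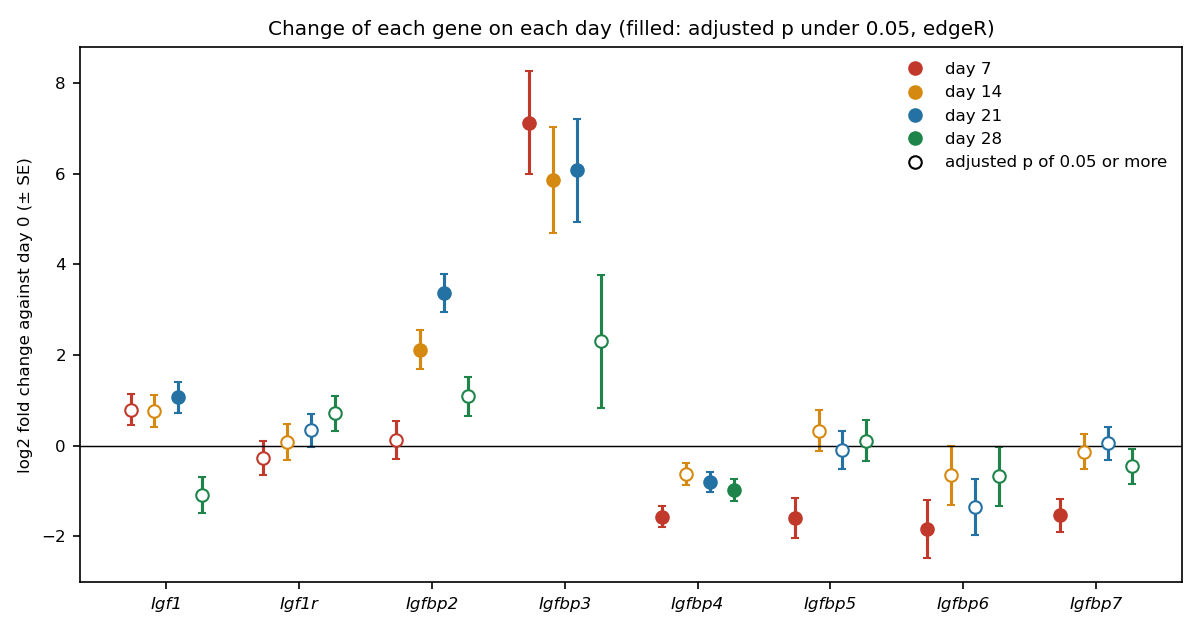
Log2 fold change against day 0 (y axis) on days 7, 14, 21 and 28 for the 8 tested genes (x axis), with bars for the approximate standard error derived from the F statistic and filled points where the edgeR adjusted p was under 0.05. Igfbp3 stands highest on day 7 at 7.13 and the 4 filled points below 0 on day 7 lie between -1.53 and -1.84.

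Igf1, the growth factor itself, had its highest means on days 7, 14 and 21 and its lowest on day 28, and of these days only day 21 passed the test against day 0. On day 0 its 4 libraries held 75.9, 40.65, 56.6 and 73.5 CPM, and on day 7 they held 96.2, 91.65, 99.7 and 140.5 CPM. On days 14 and 21 the values were 137.6, 90.0 and 86.1 CPM and 113.6, 211.9, 126.6 and 65.15 CPM. On day 28 they were 35.9, 16.5 and 33.6 CPM. Every library of days 7 and 14 lay above, and every library of day 28 below, those of day 0, whereas day 21 overlapped day 0 through its replicate 4. From 61.7 ± 16.4 CPM (SD, n = 4) before injury, the day 21 mean had reached 129.3 ± 61.1 CPM (n = 4), a log2 change of 1.07 (SE 0.335, adjusted p = 0.0454 by edgeR). That call was lost, at adjusted p = 0.0522 to 0.243, without any 1 of 11 libraries (day 0 replicates 2, 3 and 4, day 7 replicates 1, 2 and 3, day 14 replicates 2 and 3, and day 21 replicates 1, 2 and 3), and the log2 change was 0.71 without day 21 replicate 2. On days 7, 14 and 28 the log2 change against day 0 was 0.80 (SE 0.336), 0.76 and -1.09 (SE 0.392), none past the threshold (adjusted p = 0.102, 0.265 and 0.175).

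The low level of Igf1 on day 28 was the firmer difference. At 28.7 ± 10.6 CPM (SD, n = 3) it lay below day 7 by a log2 change of -1.89 (SE 0.395, adjusted p = 0.00209), below day 14 by -1.85 (adjusted p = 0.0286) and below day 21 by -2.16 (SE 0.397, adjusted p = 0.00774, edgeR). None of the day 28 libraries reached the lowest library of those 3 days. The difference from day 21 had an adjusted p of 0.0865 without day 28 replicate 2. The comparison with day 14 was fitted for the order of the levels only, and neither the alternatives nor the left-out libraries were run on it.

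The course of Igf1 before day 28 depended on the scale. The deposited normalised table carries, for some genes, a further factor per library beside the library's common one, and for Igf1 this was 0.781 in 12 libraries and 1.24 to 2.15 in the other 6, which are the 4 of day 7, day 0 replicate 4 and day 14 replicate 3. Igf1 has 18 annotated transcripts of 510 to 7590 bases, and why the factor differs was not tested. On that scale day 0 had a mean of 40.1 ± 24.7 (SD, n = 4), and the means of days 7 and 21 were 115.2 ± 50.9 and 63.2 ± 30.4 (n = 4 each). With the deposited values, the log2 change on day 7 was 1.59 and passed the threshold (limma adjusted p = 0.00749), while that on day 21 was 0.70 and did not (adjusted p = 0.327). Day 21 lay above day 7 by a log2 change of 0.27 in the counts and below it, at -0.89, in the deposited values, with adjusted p = 0.726 and 0.223. For Igfbp3 the further factor was between 0.998 and 1.03.

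**Figure D3:**
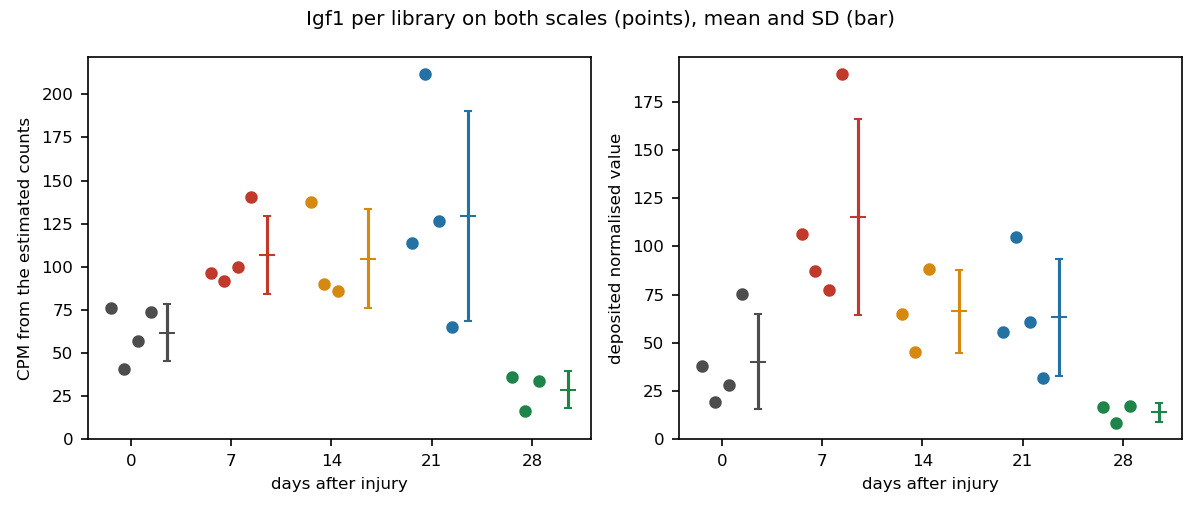
Igf1 in each library (points) by day after injury (x axis), in CPM from the estimated counts (left) and in the deposited normalised values (right), with bars for the mean and SD. The mean is highest on day 21 on the left (129.3 CPM) and on day 7 on the right (115.2), and day 28 is lowest on both.

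Igf2, the fetal growth factor of the pair, was close to absent after injury. Its counts were 0, 27, 9 and 2 on day 0, then 0, 1, 0 and 1 on day 7, 4, 3 and 0 on day 14, 3, 2, 1 and 0 on day 21, and 0 in each of the 3 libraries of day 28. On day 0 most of the counts came from replicate 2, at 32.3 CPM, followed by replicate 3 at 13.4 CPM, and replicate 1 had none. Over the 3 day 28 libraries together, 3 counts would be 1.56 CPM, which is the level up to which a count of 0 says nothing. No test was run on Igf2 with the filter in place.

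Igf1r, the receptor for both factors, did not differ from day 0 on any day. Its levels were 64.0, 66.95, 67.1 and 55.1 CPM on day 0 and 53.4, 68.3, 43.9 and 45.2 CPM on day 7. They were 83.2, 52.9 and 65.2 CPM on day 14, 82.8, 50.45, 102 and 86.1 CPM on day 21, and 67.5, 201.8 and 44.7 CPM on day 28. All days overlapped day 0, and the high mean of day 28, 104.7 ± 84.9 CPM (SD, n = 3), came from its replicate 2. The log2 change against day 0 was -0.26, 0.09, 0.35 and 0.72 on days 7, 14, 21 and 28, with edgeR adjusted p-values between 0.395 and 0.956. Without day 28 replicate 2 the change on day 28 was -0.17. Between days 28 and 7 it was 0.98 (adjusted p = 0.0987), and this passed the threshold only without day 28 replicate 1 (adjusted p = 0.0445) or without day 28 replicate 3 (adjusted p = 0.0221).

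Igfbp3, the main carrier of IGF in blood, went from near absence on day 0 to a higher level on days 7, 14 and 21. On day 0, 3 libraries held 0 counts and replicate 1 held 6, or 8.93 CPM. On day 7 the levels were 94.4, 82.7, 255.2 and 829.8 CPM, on day 14 they were 73.6, 268.2 and 53.5 CPM, and on day 21 they were 98.2, 381.4, 106.9 and 23.3 CPM. On day 28 the levels were 4.31, 0 and 28.8 CPM. Every library of days 7, 14 and 21 lay above all of day 0, while day 28 overlapped it, and within each of days 7, 14 and 21 the libraries spread widely (315.5 ± 351.8 CPM on day 7, SD, n = 4).

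The log2 change of Igfbp3 against day 0 was 7.13 (SE 1.13, adjusted p = 5.78e-05) on day 7, 5.85 (SE 1.17, adjusted p = 0.00256) on day 14 and 6.07 (SE 1.14, adjusted p = 0.00125) on day 21. On day 28 it was 2.30, which did not pass (adjusted p = 0.486, edgeR). With no filter on low counts, the day 28 change did pass (2.29, adjusted p = 0.0143, edgeR). As these values rest on 6 counts of 1 day 0 library, the size of the rise is known only roughly. The pooled counts of day 7 were 162 times those of day 0 per normalised library size, with an exact interval at 95% of 74.2 to 443 that covers counting error only. Without 1 library at a time, the change on day 7 ranged from 5.98 (without day 7 replicate 4) to 10.65 (without day 0 replicate 1). That day 7 stood above day 21 thus rested on day 7 replicate 4, and their difference was not called. Day 28 lay below day 7 by a log2 change of -4.83 (SE 1.05, adjusted p = 0.00303), which still passed when day 28 replicate 3 (-6.99) or day 7 replicate 4 (-3.67) was left out, and the difference from day 21, -3.77, did not pass the threshold (adjusted p = 0.0813, and 0.0482 without day 7 replicate 4). With limma-voom the calls of day 14 against day 0 (adjusted p = 0.0669) and of day 28 against day 7 (adjusted p = 0.0523) were lost.

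Igfbp3 moved with the macrophage genes, though not with these alone. Over the 18 libraries its log2 CPM had a Pearson r of 0.88 with the summed macrophage level, and 0.52 once the mean of each day was taken off both, as a description only, since the points share libraries and days. The day 0 library with the 6 Igfbp3 counts was also the one with the highest macrophage sum of that day, 608.9 CPM. Within day 7 the order did not match, as replicate 2 had the highest macrophage sum (8521 CPM) and the lowest Igfbp3 level. The contractile smooth muscle genes had an r of -0.70 with Igfbp3 (0.06 after the day means were taken off) and the proliferation genes 0.64 (-0.24). The neutrophil genes had 0.635 (0.04) and the endothelial genes 0.49 (0.37). The adipocyte genes had -0.46 (0.46) and the nerve genes 0.06 (0.43), the latter value of each near the 0.52 of the macrophage genes. The part of these contents in the Igfbp3 result was not tested.

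**Figure D4:**
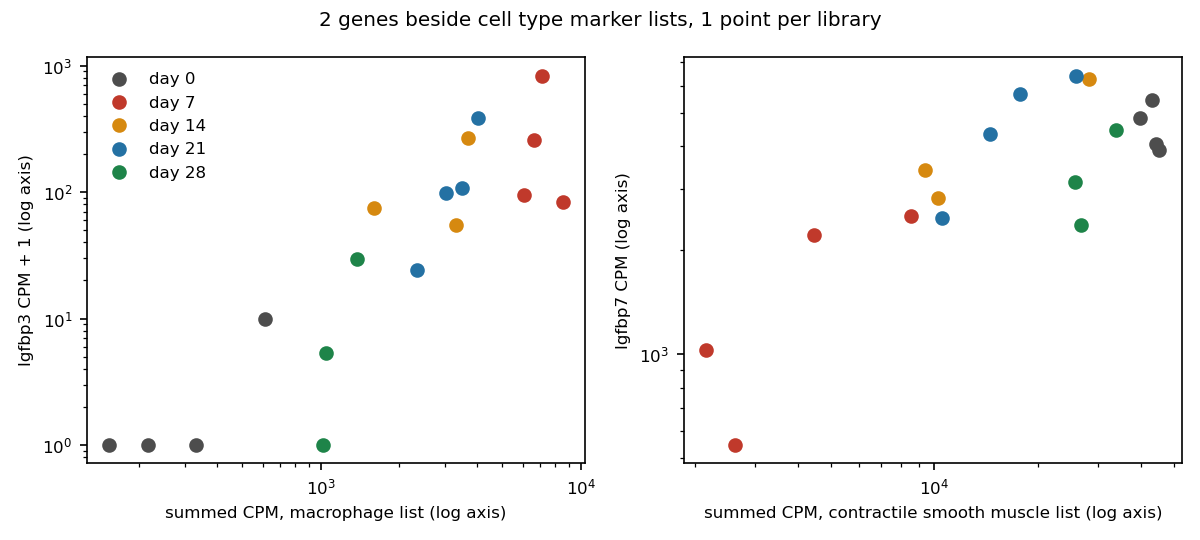
Level of Igfbp3 (y axis, CPM + 1) against the summed macrophage genes (left) and of Igfbp7 (y axis, CPM) against the summed contractile smooth muscle genes (right), with the sums in CPM on the x axes and all axes on a log scale, with a point for each of the 18 libraries coloured by day. The correlation of log2 levels is 0.88 on the left and 0.82 on the right, and the day 7 libraries lie at the high end on the left and at the low end on the right.

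Igfbp2, a binding protein abundant in fetal tissue, rose late. It stood at 93.8, 28.7, 83.5 and 59.05 CPM on day 0 and at 119.3, 43.1, 29.9 and 93.6 CPM on day 7. On day 14 it had reached 476.7, 232.9 and 154 CPM, and on day 21 it was 890.7, 367.3, 735.1 and 737.6 CPM. On day 28 it was 169.5, 119.1 and 132.6 CPM. Days 0 and 7 overlapped fully, and every library of days 14, 21 and 28 lay above all of day 0.

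From 66.25 ± 29.0 CPM (SD, n = 4) on day 0, Igfbp2 reached 287.9 ± 168.2 CPM (n = 3) on day 14 and 682.7 ± 222.5 CPM (n = 4) on day 21. The log2 change was 2.12 (SE 0.429, adjusted p = 0.00284) on day 14 and 3.37 (SE 0.424, adjusted p = 1.58e-05) on day 21, and the latter passed in every alternative and without any single library. On days 7 and 28 it was 0.13 (adjusted p = 0.886) and 1.09 (adjusted p = 0.223). Against day 7, the change was 3.25 (SE 0.424, adjusted p = 5.13e-05) on day 21 and 2.00 (SE 0.431, adjusted p = 0.0163) on day 14. The latter was lost without day 7 replicate 2 (adjusted p = 0.0728), day 7 replicate 3 (0.0557) or day 14 replicate 1 (0.237). Day 28 lay below day 21 by -2.28 (SE 0.448, adjusted p = 0.0127, edgeR), which was lost without day 28 replicate 2 (0.102) or replicate 3 (0.0745).

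Igfbp4, an inhibitor of IGF action that the pappalysin Pappa cleaves, fell sharply by day 7 and came back in part. Day 0 libraries had 924.6, 860.7, 588.7 and 716.5 CPM, and day 7 libraries had 206.6, 316.3, 221.3 and 301.9 CPM. Later values were 539.1, 404.1 and 568.9 CPM on day 14, 440, 433.9, 564.1 and 346.7 CPM on day 21, and 343.3, 400.2 and 437.8 CPM on day 28. All 14 libraries taken after injury lay below the lowest day 0 library.

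The mean of Igfbp4 dropped from 772.6 ± 150.3 CPM to 261.5 ± 55.6 CPM on day 7 (SD, n = 4 each), a log2 change of -1.56 (SE 0.227, adjusted p = 1.99e-05 by edgeR) that passed in every alternative and without any single library. On day 14 the change was -0.62 (adjusted p = 0.154). On day 21 it was -0.79 (SE 0.222, adjusted p = 0.0251), which was lost without day 0 replicate 1 (0.0706) or 2 (0.0688), or day 21 replicate 1 (0.0632), 2 (0.0518) or 4 (0.0806). On day 28 it was -0.97 (SE 0.244, adjusted p = 0.0453), which was lost at adjusted p = 0.0511 to 0.129 without any 1 of 13 libraries (day 0 replicates 1, 2 and 4, day 7 replicates 1 and 2, day 14 replicates 2 and 3, day 21 replicates 1, 3 and 4, and the 3 of day 28). From day 7 it had risen by 0.95 on day 14 (adjusted p = 0.0375) and by 0.77 on day 21 (adjusted p = 0.0351). The first of these was lost without day 7 replicate 1 (0.133), 2 (0.0617) or 3 (0.12) or day 14 replicate 1 (0.198) or 3 (0.168), and the second without day 7 replicate 1 (0.116) or 3 (0.0955) or day 21 replicate 1 (0.0674) or 3 (0.118).

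Igfbp5, a binding protein that attaches to the extracellular matrix, fell on day 7 and did not pass the test against day 0 on later days. It was at 257.6, 197.2, 138.6 and 182.4 CPM on day 0 and at 17.8, 70.1, 73.8 and 95.25 CPM on day 7, with no overlap. On day 14 it was 271.9, 217.1 and 245.3 CPM, on day 21 it was 91.1, 427.9, 75.65 and 141.9 CPM, and on day 28 it was 179.5, 175.3 and 273.2 CPM. Days 14, 21 and 28 each overlapped day 0, and on day 21 replicate 2 stood far above the other 3.

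The log2 change of Igfbp5 on day 7, where the mean fell from 194 ± 49.2 to 64.2 ± 32.9 CPM (SD, n = 4 each), was -1.59 (SE 0.445, adjusted p = 0.0118 by edgeR) and passed in every alternative and without any single library. On days 14, 21 and 28 it was 0.34, -0.09 and 0.11 (adjusted p = 0.814, 0.943 and 0.945), and with a block for the number shared by day 0 and day 21 libraries it turned to -0.74 on day 14 and -0.96 on day 28, neither called. That block links days 14 and 28 to day 0 only through day 0 replicate 1 and day 21 replicate 2, so the turn is no check on pairing. Against day 7 the gene was higher on day 14 by 1.93 (SE 0.469, adjusted p = 0.0305), on day 21 by 1.503 (adjusted p = 0.039) and on day 28 by 1.70 (SE 0.47, adjusted p = 0.016). The day 14 call was lost without day 7 replicate 1 (0.0899), 2 (0.0787) or 3 (0.0688) or day 14 replicate 1 (0.149) or 3 (0.0821), and the day 28 call without day 28 replicate 3 (0.0662). The day 21 call was lost without day 7 replicate 1 (0.121), 2 (0.0734) or 3 (0.0659) and without day 21 replicate 2, where the change was 0.69 (0.343). Without day 21 replicate 2, the change of Igfbp5 on day 21 against day 0 was -0.95, which was not called. Over all libraries it was -0.09, beside 3.37 for its genomic neighbour Igfbp2.

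Igfbp6, which prefers IGF2 over IGF1, was lower on day 7 by a narrow margin. Its levels were 98.3, 49.0, 25.3 and 65.6 CPM on day 0, 5.34, 16.2, 35.9 and 9.69 CPM on day 7, and 11.2, 88.2 and 15.7 CPM on day 14. They were 37.85, 8.07, 19.7 and 25.6 CPM on day 21 and 24.4, 52.9 and 35.15 CPM on day 28. Day 7 overlapped day 0 through its replicate 3, and every later day overlapped day 0 as well. The log2 change on day 7 was -1.84 (SE 0.639, adjusted p = 0.0434, edgeR), and the call was lost without day 0 replicate 1 (0.136), 2 (0.0561) or 4 (0.078) or day 7 replicate 1 (0.121), 2 (0.0835) or 4 (0.105). On days 14, 21 and 28 the change was -0.65, -1.35 and -0.67 (adjusted p = 0.736, 0.194 and 0.685). Day 14 rested on its replicate 2, without which the change was -2.13, while it was -0.21 without day 14 replicate 1.

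Igfbp7, a secreted protein of the vessel wall that binds IGF only weakly, was lower on day 7 and did not pass the test against day 0 on later days. It was at 3901, 4836, 4050 and 5455 CPM on day 0 and at 2210, 1026, 546.2 and 2518 CPM on day 7. On day 14 it was 6259, 3406 and 2840 CPM, on day 21 it was 4337, 2482, 6400 and 5682 CPM, and on day 28 it was 4457, 2370 and 3159 CPM. On day 7 every library lay below all of day 0, and the other days had libraries on either side of its lowest value.

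The mean of Igfbp7 fell from 4560 ± 723.9 to 1575 ± 940.4 CPM on day 7 (SD, n = 4 each), a log2 change of -1.53 (SE 0.362, adjusted p = 0.0032 by edgeR). The call was lost with a block for the number shared by day 0 and day 21 libraries (adjusted p = 0.163). That block links day 7 to days 0 and 21 only through day 0 replicate 1 and day 21 replicate 2, so the loss is no check on pairing. On days 14, 21 and 28 the change was -0.13, 0.05 and -0.45, none past the threshold, and on each of these days the sign turned under some alternative. Day 21 lay above day 7 by 1.58 (SE 0.363, adjusted p = 0.00693), which the same block also ended (1.005, adjusted p = 0.318). The differences of days 14 and 28 from day 7, 1.40 and 1.08, missed the threshold in edgeR (adjusted p = 0.0587 and 0.0582) and depended on the method. Both passed with DESeq2 (adjusted p = 0.0271 and 0.0426), library totals only (0.042 and 0.03), limma-voom (0.0257 and 0.0212), no filter (1.28e-06 and 0.000337), the replicate block (0.0153 and 0.0151) and the deposited values (0.0493 and 0.031). Both also passed without day 7 replicate 4 (0.0121 and 0.0153) or day 21 replicate 2 (0.0396 and 0.04), and day 28 without day 7 replicate 1 (0.0403) or day 14 replicate 1 (0.0483). The level of Igfbp7 followed the contractile smooth muscle genes, with a Pearson r of 0.82 over the 18 libraries and 0.82 after the day means were taken off, given as a description. Within day 7, replicate 4 had the highest sum of those genes (8555 CPM) and the highest Igfbp7 level. Igfbp4 had an r of 0.77 with the same sum, but 0.18 after the day means were taken off. It also had an r of -0.77 (-0.57 after that step) with the proliferation genes, -0.75 (-0.18) with the neutrophil genes, -0.75 (0.29) with the macrophage genes and 0.63 (0.55) with the fibroblast genes. For Igfbp7 the fibroblast genes had 0.74 (0.43), the proliferation genes -0.72 (-0.39) and the adipocyte genes 0.70 (0.69). The part of these contents in the results was not tested.

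By mean log2 CPM, the days ordered as 21, 7, 14, 0 and 28 for Igf1, as 21, 14, 28, 7 and 0 for Igfbp2, and as 7, 14, 21, 28 and 0 for Igfbp3. The order was 0, 14, 21, 28 and 7 for Igfbp4, 14, 28, 0, 21 and 7 for Igfbp5, 0, 28, 14, 21 and 7 for Igfbp6, and 0, 21, 14, 28 and 7 for Igfbp7, and it was 28, 21, 14, 0 and 7 for Igf1r. Of the 32 pairs of neighbours in these orders, day 21 against day 7 for Igfbp5 was the one that passed the edgeR threshold.

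Between the axis genes themselves, Igf1 and Igfbp3 had the highest correlation of log2 CPM over the 18 libraries, with a Pearson r of 0.77 and 0.71 after the day means were taken off. Igfbp2 and Igfbp7 had an r of 0.55 and 0.73 after that step. Among all genes tested, the 3 whose course was most like that of Igfbp3 were Myo1f (r = 0.935), Slc7a7 (0.92) and Trem2 (0.912), the last a receptor of macrophages. Those most like Igfbp7 were Timp3 (0.946), an inhibitor of matrix proteases, Prelp (0.93), a matrix proteoglycan, and Fgfr2 (0.922). For Igfbp2 they were Tnfrsf11b (0.869), which encodes osteoprotegerin, Adamts2 (0.865) and Gdf10 (0.863). For Igfbp4 they were Entpd2 (0.913), Snrk (0.88) and Npr1 (0.855), and for Igf1 P2ry2 (0.866), Surf4 (0.847) and Dtx4 (0.847). The highest values for Igf1r were those of Cdkn1b (0.874), Sltm (0.821) and Stc2 (0.794), for Igfbp5 those of Sertad1 (0.817), Hectd4 (0.816) and Fzd8 (0.775), and for Igfbp6 those of Tspan11 (0.787), Id2 (0.709) and Serpinf1 (0.701). All of these are descriptions over libraries that share their days.

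Of 19 other genes of the axis, 18 were in the table and 10 passed the filter, and H19 was not analysed here. On day 7, 1 of the 10 was higher, beside 11.3% of all genes, and 2 were lower, beside 8.53%, with a median log2 change of -0.27 beside 0.07 for all genes tested. Igf2r, the receptor that takes up IGF2 and sends it to the lysosome, was the one that rose, from 45.0 ± 13.4 CPM on day 0 to 99.7 ± 14.6 CPM on day 7 (SD, n = 4 each), a log2 change of 1.14 (SE 0.284, adjusted p = 0.00496). It was also higher on day 21, by 1.11 (SE 0.284, adjusted p = 0.0147, edgeR), and stood at 38.0 ± 8.88 CPM (n = 3) on day 28. Irs1, the adaptor that couples the receptor to PI3K, was lower on day 7 by -2.42 (SE 0.824, adjusted p = 0.0388), as was Grb14, an inhibitor of receptor signalling, by -1.86 (SE 0.563, adjusted p = 0.0195). On day 21 Igf2r was the 1 gene of the 10 called (beside 5.92% of all genes higher), and on days 14 and 28 edgeR called 0 of the 10. The median was 0.47, 0.13 and 0.16 on days 14, 21 and 28, beside 0.05, 0.07 and -0.01 for all genes.

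Of the pappalysins and stanniocalcins that govern the cleavage of binding proteins, Stc2 alone passed the filter, with 34 counts before injury, then 5 (day 7), 9 (day 14), 30 (day 21) and 44 (day 28), of which 35 were in 1 library. Its log2 change on day 7 was -2.26 (adjusted p = 0.127, edgeR), and no later day passed the threshold against day 0. The others were sparse. Pappa had 28 counts over all libraries, 20 of them in 1 library, Pappa2 had 42 and Stc1 had 36. Igfbp1, the liver-derived binding protein, had 0 counts in all 18 libraries, where 3 counts over the total would be 0.262 CPM. Igfals, which encodes the third partner of the circulating complex, had 3 counts and Igfbpl1 had 5. The mRNA-binding genes Igf2bp1 and Igf2bp3 had 7 and 43 counts.

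Downstream of the receptor, 24 of 24 listed genes of the PI3K, AKT and mTOR route were tested. On day 7, 2 were higher (beside 11.3% of all genes) and 3 lower (beside 8.53%), shares near those of all genes, with a median log2 change of -0.31 beside 0.07 for all genes. Pik3cd, the catalytic subunit of PI3K found mainly in leukocytes, was higher by 2.94 (SE 0.549, adjusted p = 0.000359) and the adaptor Grb2 by 1.04 (adjusted p = 0.0471), while Mtor (-1.44) and Foxo4 (-1.59) were among those that were lower. On day 14 Pik3cd was the 1 gene called (2.15, beside 4.80% of all genes higher), on day 21 (beside 5.92%) Pik3cd (1.94) and the regulatory subunit Pik3r1 (1.45) were higher, and on day 28 edgeR called 0 of the 24. The median on those days was -0.06, 0.20 and 0.01, near that of all genes. Pik3cd was called on the days with the highest macrophage sums, 6035-8521 CPM on day 7, 1609-3687 CPM on day 14 and 2352-4030 CPM on day 21, and the part of that content was not tested.

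All 10 other genes with an IGFBP domain in their protein were tested, most of them CCN matricellular proteins and HtrA proteases. On day 7, Ccn1 (1.78), Ccn4 (4.87) and Esm1 (2.87, an endothelial proteoglycan) were higher and Ccn3 (-3.92), Htra1 (-1.31) and Htra3 (-1.36) were lower, in log2 change against day 0, beside 11.3% and 8.53% of all genes. Ccn4 stayed past the threshold on day 14 (5.12, SE 0.648, adjusted p = 1.67e-05) and day 21 (5.26, SE 0.63, adjusted p = 7.78e-06 by edgeR), joined on day 21 by Ccn5 (1.58, adjusted p = 0.0162). On day 28 edgeR called 0 of the 10, and Ccn4 was at 2.37 (adjusted p = 0.118). Ccn4 had 6 counts on day 0, 5 of them in 1 library, and Esm1 had 17, 12 of them in 1 library. The size of the changes of Ccn4 and Esm1 is thus known only roughly. The median of the 10 was -0.09, 0.63, 0.60 and 0.07 on days 7, 14, 21 and 28.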

How the data were processed

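PCR duplicates were removed by the authors with the help of molecular identifiers and reads were trimmed. The authors then, per the labels, quantified them with Salmon 1.9.0 and used DESeq2 1.36.0 on the mm39 build. Neither the annotation release nor whether counting was stranded is given in the sources used here. The authors deposited 2 tables, one of whole-number estimated counts (expected counts) and one of a normalised signal, which holds a common factor for each library and, in part of the genes, another factor (60.3% of 221855 values lay within 1% of the library's factor).

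Totals were 440675 to 878310 counts (median 659166). The label's day set the group of each library. The counts were fitted with edgeR 4.0.16 (R 4.3.3) in 1 model of day over 18 libraries with filterByExpr, TMM and the quasi-likelihood test, with Benjamini-Hochberg adjustment over 10312 genes at a threshold of 0.05. CPM used TMM-scaled library sizes, and log2 CPM a prior count of 2. No 2 libraries of a day differed by as little as sampling noise. On simulated data for day 7 against day 0 (10312 genes, 200 changed), the test recovered 8% of genes changed 2-fold and 47% of those changed 4-fold, with 3.51% of calls false. Libraries with the same replicate number had residuals correlated at -0.132 to 0.205 over 33 pairs. The 3 pairs with the number shared by day 0 and day 21 libraries reached at most 0.0554. Neither check can show that pairing was absent.

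Alternatives were DESeq2 1.42.0, other size factors and filters, fits of 2 days only, blocks for both numbers, limma 3.58.1 on counts (voom) and on log2(deposited value + 1), each library left out in turn and, chosen after seeing the data, the deposited factors as an offset in edgeR. Members and gene lists were chosen with earlier results of these data known. All 9 members are named. From the lists of other genes of the axis, of the PI3K, AKT and mTOR route and of other genes with an IGFBP domain, genes called against day 0 or without a count were named, apart from 1 that is not reported here, and for likeness the 3 genes with the highest Pearson r. Genes singled out outside this rule were chosen after their values were seen. Of the marker lists, the sums of the smooth muscle and macrophage ones are given in the report, and those of the others stand in the closing section. Single-cell data were not analysed here.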

Additional observations from a re-analysis of the deposited data

Results flagged for a closer look

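Of 27 sets of 4 libraries (1 gene on 1 day) examined for a value apart from the rest, 2 had one, and chance alone gives about 1 in 20. These were Igf1 in day 7 replicate 4, at 140.5 CPM, where the other 3 libraries held 91.65 to 99.7 CPM, and Igfbp3 in day 0 replicate 1, at 8.93 CPM, where the other 3 held 0 counts.

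The change from day 0 differed between days, by the edgeR test of one day against another, for Igf1, Igfbp2, Igfbp3, Igfbp4, Igfbp5 and Igfbp7. For Igfbp2 the log2 difference from day 7 was 2.00 on day 14 and 3.25 on day 21, and day 28 differed from day 21 by -2.28. Igfbp4 differed by 0.95 between days 14 and 7 and by 0.77 between days 21 and 7. Igfbp5 differed from its day 7 level by 1.93 on day 14, 1.503 on day 21 and 1.70 on day 28. For Igfbp7 the difference between days 21 and 7 was 1.58. Igf1 differed by -1.89 between days 28 and 7 and by -2.16 between days 28 and 21, and Igfbp3 by -4.83 between days 28 and 7.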

How the results depend on the processing

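Over the alternatives other than leaving out a library, 473 values kept their direction and their side of the threshold, 35 lost a call, 20 gained one and 10 changed sign, all 10 without a call on either side. The number of called genes among the 8 was 5 on day 7 against day 0. It was 3 with a block for the number shared by day 0 and day 21 libraries. It was 4 with library totals only or with the replicate block, and 6 with the deposited values. With no filter Igf2 was tested too, so those counts are out of 9 genes. Smaller shifts in the other comparisons are not listed. On day 14 the number of called genes was 2, 0 with the block of the shared number and 1 with limma-voom. On day 28 it was 1, 0 with library totals only, with 2 days in the fit, with the replicate block, with the block of the shared number and with the deposited factors as an offset, and 3 with no filter. Between days 14 and 7 it was 3, 5 with no filter and 1 with 2 days in the fit or with the offset. Between days 21 and 7 it was 4, and 2 with either block. Between days 28 and 7 it was 3, and 5 with no filter or with the replicate block. Between days 21 and 14 it was 0, and 1 with no filter. Among the other axis genes the count on day 7 was 3, and 1 with the block of the shared number. On day 21 it was 1, 3 with no filter, and 2 with 2 days in the fit or limma-voom, and on day 28 it was 0, and 1 with DESeq2. With 1 library left out, the 8 genes gave 4 to 5 calls on day 7, 2 on day 14, 2 to 4 on day 21 and 0 to 1 on day 28, then 0 to 4 (days 14 and 7), 2 to 4 (21 and 7), 3 to 4 (28 and 7) and 0 to 3 (28 and 21), and the other axis genes gave 1 to 3, 0 to 1, 0 to 2 and 0 on days 7 to 28. The cause was not tested in any case.

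With the block of the shared number, the log2 change against day 0 turned to 0.0079 for Igf1r on day 7, to -0.74 for Igfbp5 and 0.38 for Igfbp7 on day 14, to -0.023 for Igfbp7 on day 21 (also -0.024 with limma-voom and -0.015 with the deposited values), and to -0.96 for Igfbp5 and 0.052 for Igfbp7 on day 28. Igf1 on day 21 against day 7 turned to -0.89 with the deposited values and -0.86 with the offset. With 1 library left out, the range crossed 0 for Igfbp2 on day 7 (-0.28 to 0.34), Igf1r on day 14 (-0.088 to 0.21) and day 28 (-0.17 to 1.09), Igfbp7 on day 14 (-0.54 to 0.066) and day 21 (-0.15 to 0.24), Igfbp5 on day 21 (-0.95 to 0.15) and day 28 (-0.13 to 0.28), and Igf1 on day 21 against day 7 (-0.039 to 0.51).

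Since nothing states that the replicate numbers pair the libraries, the replicate block is an alternative only. With it, Igf1 on day 21 against day 0 had an adjusted p of 0.0642, Igfbp4 on day 28 0.0861 and Igfbp6 on day 7 0.0751, so those calls were lost. Between later days it ended the calls of Igfbp4 on days 14 (0.0875) and 21 (0.0623) and of Igfbp5 on day 21 (0.071) against day 7, and Igfbp7 passed on days 14 (0.0153) and 28 (0.0151) against day 7. The block of the shared number ended, among others, the calls of Igfbp7 on day 7 (0.163) and of Igfbp2 (0.0614) and Igfbp3 (0.0817) on day 14. As it links days 7, 14 and 28 to day 0 only through day 0 replicate 1 and day 21 replicate 2, its results on those days are no check on pairing. The biological coefficient of variation was 0.449, with 3 or 4 libraries a day. In the simulation 47% of 4-fold and 8% of 2-fold changes were recovered. The simulation changed 200 of 10312 genes, whereas the day 7 test on the data called 2041. Fewer changed genes make the adjusted threshold harder to pass, so the recovered shares do not carry over to the data. A gene not called is still not shown to be unchanged.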

Other observations

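Other cell content of the libraries moved between days as well. The 12 fibroblast genes summed to 2934-4400 CPM before injury and 1413-2694 CPM on day 7, and the later days had 3641-5211 (day 14), 3756-5999 (day 21) and 2858-3421 CPM (day 28). The 10 proliferation genes ranged over 65.75-117.7 CPM on day 0 and 340.6-739.6 CPM on day 7, and the 12 endothelial genes over 830.8-1382 and 979.3-2867 CPM. The 6 red blood cell genes ranged over 40.2-369.4 CPM on day 0 and 163.8-2347 CPM on day 7. The 10 neutrophil genes ranged over 26.8-108.8 CPM on day 0 and 234.1-813.7 CPM on day 7. Only 5 of these 10 held a count on day 0 and 6 on day 7, with Ly6g, Camp and Ltf at 0 on both days. Csf3r and Retnlg were also at 0 on day 0, and Ngp on day 7. The 10 T and B cell genes never exceeded 48.5 CPM. The adipocyte genes were at 41.86 to 514.2 CPM, with Lep at 0 on every day, and the nerve genes at 95.69 to 456.1 CPM. The skeletal muscle genes were at 0 to 91.65 CPM on days 0, 7 and 28 and reached 393.5 CPM in 1 library of day 14 and 309.9 CPM in 1 library of day 21. The part of these contents in the results for the growth factor axis was not tested.

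After the day means were taken off, Igfbp2 had a correlation of 0.71 with the summed contractile smooth muscle genes over the 18 libraries, where the plain Pearson r was 0.18. This is a description only.

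The low counts of Pappa2 were 0 on day 0, and 23 of its 42 counts were in the 4 libraries of day 21. Of the 28 counts of Pappa, 21 were in the 3 libraries of day 28.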
